A study of Mus musculus with 38 samples.

Results

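The dual specificity MAP kinase phosphatases examined here were Dusp1, Dusp2, Dusp4, Dusp5, Dusp6, Dusp10, Dusp14 and Dusp16. They were chosen by symbol, and Dusp14 was picked on its rise in myeloma cells of the bone lining, so its values in that comparison are given as a description with no test. Of these 8 genes, 7 had a row among the 13260 genes of the table, and Dusp4 was not analysed here. The RNA-Seq data are RPKM values, read counts scaled to transcript length and to the size of the library, from 38 libraries.

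Each library was made from 100 cells sorted by flow cytometry from C57Bl/KaLwRij mice, which at an age of 8 to 10 weeks had received intravenous PBS vehicle (healthy) or 1000000 5TGM1-GFP cells, and were culled on day 23 after that. 5TGM1 is a mouse myeloma line, here a single line marked with green fluorescent protein, and no group received any other agent. Endothelial cells (CD45-/Ter119-/CD31+), stromal progenitors (CD31-/Sca1+/ALCAM-) and osteoprogenitors (CD31-/Sca1-/ALCAM+) were sorted from the bone lining of healthy and of myeloma-bearing mice, with 5 libraries in each group and 4 for osteoprogenitors. GFP+ myeloma cells were sorted from the bone lining and from the central bone marrow, with 5 libraries each. Libraries are named here by the letter in their code, which differs between the libraries of a group. Whether 1 letter always means 1 mouse is not given in the labels.

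Dual specificity phosphatases switch off MAP kinases by removing phosphate from the threonine and the tyrosine of the activation loop. Many of them are themselves induced by the pathway that they inhibit, so they act as negative feedback. Dusp1, Dusp2, Dusp4 and Dusp5 are inducible nuclear enzymes, of which Dusp1 acts on p38, JNK and ERK and Dusp5 on ERK. Dusp6 is a cytoplasmic phosphatase selective for ERK, Dusp10 and Dusp16 prefer JNK and p38, and Dusp14 is a small atypical member without the MAP kinase binding domain of the others. In bone, MAP kinase signalling takes part in osteoblast differentiation, and in myeloma cells ERK is activated by growth factors from their surroundings.

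Promoter sequence is shown for the most abundant member (Dusp1), the member picked for its rise (Dusp14), the member high in endothelial cells (Dusp6) and the member with the rarest motif match (Dusp5). Sequences are from RefSeq on GRCm38.p6, in which all 7 members had an entry, and cover the bases before the transcription start, without bases in an annotated exon of the gene. Capitals mark matches on either strand to the cyclic AMP response element TGACGTCA, the shorter core TGACG, the AP-1 site TGANTCA, the CArG box or the NF-kappaB site.
Dusp1, chr17:26508520-26508722, minus strand, ending 48 bases before the start, within an intron of a longer annotated transcript: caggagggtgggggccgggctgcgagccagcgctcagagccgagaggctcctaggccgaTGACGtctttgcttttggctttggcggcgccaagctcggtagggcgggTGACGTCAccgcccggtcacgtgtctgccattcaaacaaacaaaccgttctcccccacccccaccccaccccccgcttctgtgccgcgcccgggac
Dusp14, chr11:84068358-84068480, minus strand, within an intron of a longer annotated transcript: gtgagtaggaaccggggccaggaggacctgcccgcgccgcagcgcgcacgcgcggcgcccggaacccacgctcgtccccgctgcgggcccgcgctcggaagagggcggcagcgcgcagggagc
Dusp6, chr10:99262981-99263230, plus strand: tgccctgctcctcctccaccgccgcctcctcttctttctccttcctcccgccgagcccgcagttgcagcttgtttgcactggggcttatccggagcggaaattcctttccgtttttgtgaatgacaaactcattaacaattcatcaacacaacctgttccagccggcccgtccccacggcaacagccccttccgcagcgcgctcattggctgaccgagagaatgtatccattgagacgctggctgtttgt
Dusp5, chr19:53528895-53529108, plus strand, ending 37 bases before the start: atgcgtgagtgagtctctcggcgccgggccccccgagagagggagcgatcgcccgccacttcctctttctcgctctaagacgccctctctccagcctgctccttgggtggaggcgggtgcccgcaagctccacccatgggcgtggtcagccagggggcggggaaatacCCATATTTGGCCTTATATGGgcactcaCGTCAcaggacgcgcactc
In the 250 bases before the start, the Dusp1 promoter held a full cyclic AMP response element at -143 to -136, which overlaps 2 of its 3 cores on opposite strands. Of 32851 promoters in the table, 1.55% held the full element and 17.8% a core. Dusp5 held 2 adjoining CArG boxes, the binding motif of serum response factor, between -82 and -63, and 1.47% of all promoters held at least 1. Dusp5 and Dusp16 each held a single core. No member held the AP-1 site (6.75% of all promoters) or the NF-kappaB site (7.25%) in this window. The full 250 bases of Dusp2, Dusp6, Dusp10 and Dusp14 matched none of the motifs.

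Reads on genes ran from 9735031 to 34883291 per library. Endothelial markers summed to 6144 to 20990.5 RPKM in endothelial cells and to at most 202 RPKM in any other library. The Dusp14, Dusp1 and other values of myeloma cells come from libraries in which Igj, the immunoglobulin joining chain, was at 2843 RPKM or more, against at most 10.4 RPKM in niche cells. Osteoprogenitors had Sp7, an osteoblast transcription factor, at 1.51 to 30.6 RPKM, against at most 0.711 RPKM elsewhere. Of the 6 stromal progenitor markers, Pdgfra and Prrx1 had their highest medians in stromal progenitors (54.3 and 73.2 RPKM), with ranges that overlapped those of osteoprogenitors (medians of 32.2 and 27.5 RPKM). Pdgfrb had medians of 12.4 RPKM in stromal progenitors and 12.0 RPKM in osteoprogenitors. Lepr and Cxcl12 did not set stromal progenitors apart, with medians of 25.2 and 124 RPKM against 29.1 and 183 RPKM in endothelial cells, and Ly6a, which encodes the Sca1 of their gate, had a median of 3913 RPKM in endothelial cells and of 1229 RPKM in stromal progenitors. Neutrophil markers stood apart in 2 stromal libraries, healthy L (7374 RPKM in sum) and myeloma-bearing E (8139 RPKM), against at most 292 RPKM in the other stromal libraries. The central marrow libraries I and J have codes that end in 6 and the central libraries D, E and G codes that end in 4a, whereas all bone lining codes end in 4, and the labels do not say what the endings mean.

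Between cell types the phosphatases differed in which cells carried them. In libraries of pooled cells, fewer cells that carry a gene and less RNA of it per cell cannot be told apart. Members were called at a Benjamini-Hochberg adjusted p below 0.1 and a log2 difference above 1 in limma, fitted on log2(RPKM + 1) over 12683 genes and all 38 libraries. Endothelial cells and stromal progenitors differed in 3 of 7 members (25.5% of all genes), endothelial cells and osteoprogenitors in 5 of 7 (27.9%), and endothelial and myeloma cells in 3 of the 6 other than Dusp14 (43.2%). Stromal progenitors and osteoprogenitors differed in 1 of 7 (8.48%), stromal progenitors and myeloma cells in 4 of these 6 (41.9%), and osteoprogenitors and myeloma cells in 5 of these 6 (40%). With so few members, these counts are a description and set the members apart from all genes in no comparison. Dusp14 is left out of the comparisons with myeloma cells, since its level there was part of its choice. Scaling every library to the same sum moved the median difference of all genes from -0.24 to -0.59 between endothelial and myeloma cells, from -0.12 to -0.67 between stromal and myeloma cells, and from -0.09 to -0.46 between osteoprogenitors and myeloma cells. It changed no call among the members counted here.

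**Figure D1:**
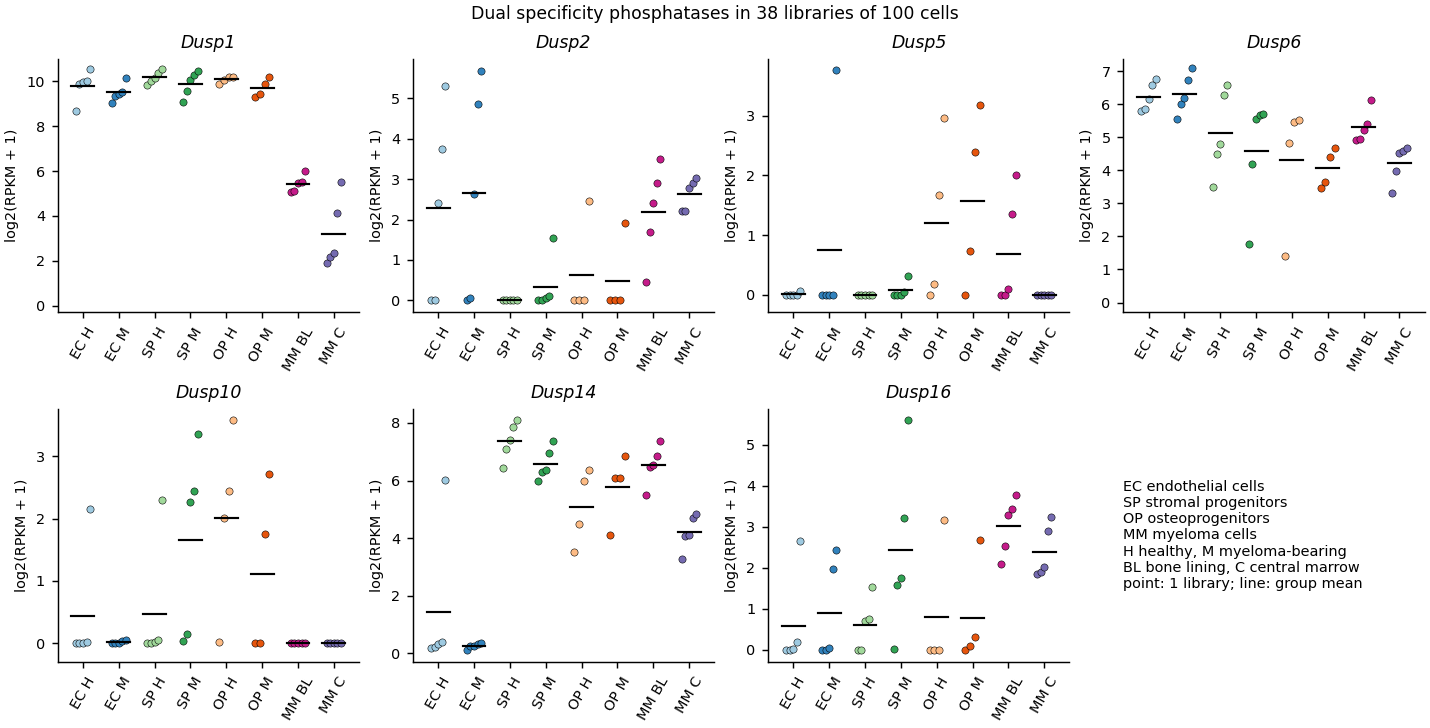
Level of each phosphatase, as log2(RPKM + 1), in 38 libraries by group, with a point for each library and a line at the group mean. Dusp1 lies far higher in all 28 niche libraries than in the 10 myeloma libraries, and Dusp14 is near 0 in 9 of 10 endothelial libraries.

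**Figure D2:**
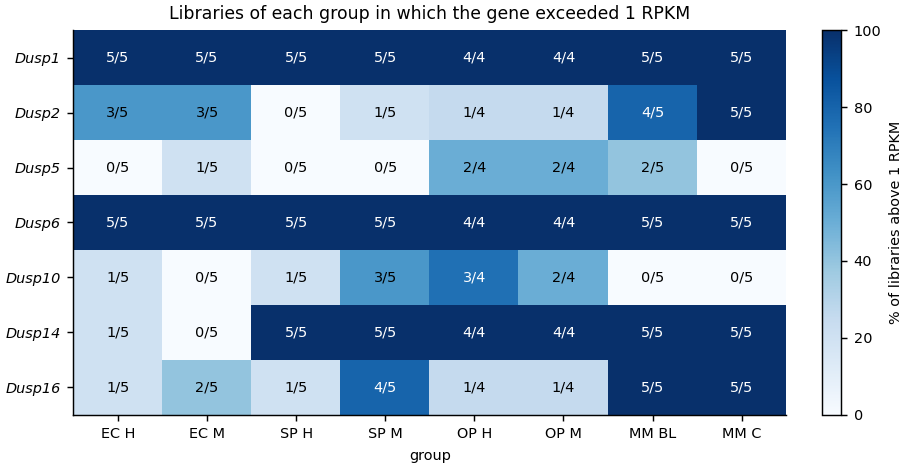
Number of libraries of each group in which a phosphatase exceeded 1 RPKM, with colour for the percentage (EC endothelial cells, SP stromal progenitors, OP osteoprogenitors, MM myeloma cells, H healthy, M myeloma-bearing, BL bone lining, C central marrow). Dusp1 and Dusp6 exceeded it in every library, while Dusp5 did so in part of the libraries of 4 of 8 groups and in none of the other 4.

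Dusp1 was among the most abundant transcripts of the niche. Its mean level was 860 ± 323 RPKM (SD, n = 10) in endothelial cells, 1089.5 ± 297 RPKM (n = 10) in stromal progenitors and 969 ± 212 RPKM (n = 8) in osteoprogenitors, which ranked 93, 80 and 77 among 13260 genes. In myeloma cells it was 28.9 ± 21.1 RPKM (n = 10), with a rank of 2109. The lowest niche library, endothelial healthy O, was at 404 RPKM and the highest myeloma library at 63.6 RPKM, so niche and myeloma cells did not overlap. The share of all genes without such overlap is not given here. The log2 difference from myeloma cells was 5.33 ± 0.31 (SE) for endothelial cells, 5.71 ± 0.31 for stromal progenitors and 5.56 ± 0.33 for osteoprogenitors, with adjusted p of 2.81e-17, 3.35e-18 and 5.86e-17 in limma. All 19 alternatives run for each of these comparisons kept the call. With bone lining myeloma cells alone the differences were 4.22, 4.60 and 4.45. No pair of niche cell types was called. Stromal progenitors exceeded endothelial cells by a fitted 0.38 ± 0.31 (log2; adjusted p = 0.450), which ran from 0.0228 in voom-limma to 0.977 over the alternatives, all with a difference below 1. The other log2 differences were 0.15 ± 0.33 between stromal progenitors and osteoprogenitors (adjusted p = 0.921) and 0.23 ± 0.33 between osteoprogenitors and endothelial cells (adjusted p = 0.691, limma). The 15 immediate-early genes, a list of rapidly induced transcription factors and signalling genes, summed to 2188 to 6699 RPKM in niche libraries and to 129 to 441 RPKM in myeloma libraries. All niche cells, like the bone lining myeloma cells, were released by collagenase digestion of crushed bone. The part of this preparation in these levels was not tested.

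Between the myeloma niches, Dusp1 was uneven among the central libraries. In the bone lining it was at 43.0 RPKM in library D, 44.3 in E, 63.6 in G, 33.0 in I and 33.8 in J. In the central marrow it was at 3.56 RPKM in D, 2.76 in E, 4.13 in G, 44.2 in I and 16.4 in J. Central library I thus lay within the range of the bone lining, and the other central libraries lay below it. The means were 43.5 ± 12.3 and 14.2 ± 17.7 RPKM (SD, n = 5 each), and the log2 difference of 2.22 ± 0.56 (SE) was not called (adjusted p = 0.230, limma). Over its alternatives the adjusted p ran from 0.00543 to 1. In 2 comparisons chosen after seeing the data, the log2 difference was 3.51 ± 0.43 (adjusted p = 0.00543) among letters D, E and G, and 0.30 ± 0.58 (adjusted p = 0.998) among letters I and J. The letters were split by the Dusp1 values above, so these results restate them and are no support. Leaving out letter I gave 2.88 (adjusted p = 0.0257), and fitting all 38 libraries together gave 2.22 (adjusted p = 0.00637), both in limma. Fos, the AP-1 subunit that is a classic immediate-early gene, followed the same libraries, at 22.3 RPKM in central I, 16.0 in central J and 0.512 to 1.98 in central D, E and G, against 53.5 to 177 RPKM in the bone lining. Whether the code endings have a part in this was not tested beyond these values. Bone lining cells were released by collagenase digestion of crushed bone, so that the niche and this preparation cannot be told apart.

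Across the 4 members tested other than Dusp14, none was called between bone lining and central marrow, where 0.203% of 8857 genes were called. The unadjusted p was below 0.05 for 2 of the 4, Dusp1 and Dusp6, and for 530 of all 8857 genes. Voom-limma on the recovered reads also called none of the 4. Dusp5 and Dusp10 did not pass the filter of 1 RPKM in at least 4 of the 10 libraries.

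**Figure D3:**
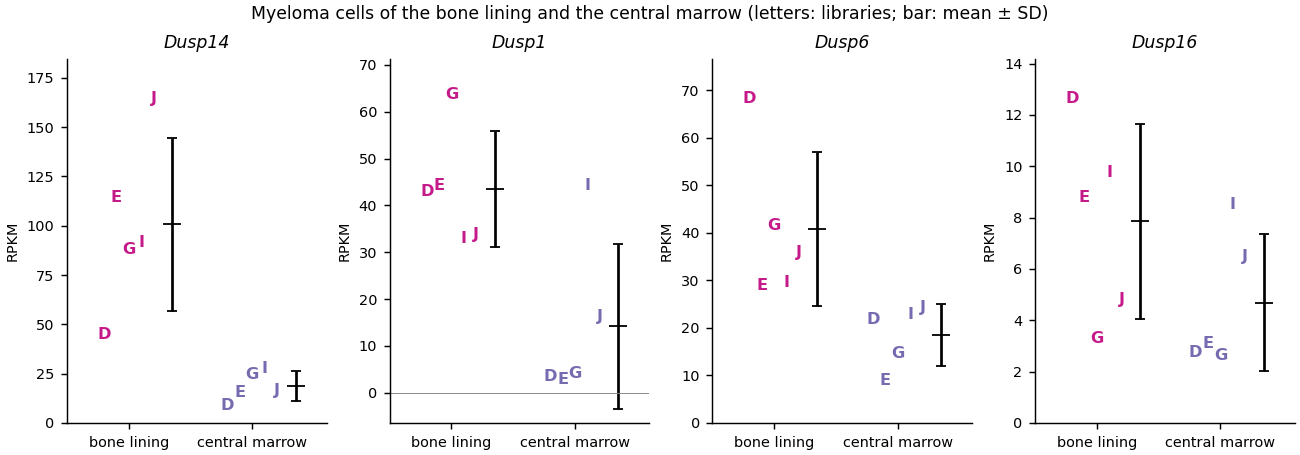
RPKM of Dusp14, Dusp1, Dusp6 and Dusp16 in myeloma cells of the bone lining and central marrow, with a letter for each library and the mean ± SD of 5 libraries beside it. Dusp14, picked for this rise, and Dusp6, which was not called, do not overlap between the niches. The share of all genes without overlap is not given here. Central library I reaches 44.2 RPKM for Dusp1.

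Dusp2, a nuclear phosphatase first known from activated lymphocytes, was carried by endothelial and myeloma cells. It was at 13.9 ± 18.6 RPKM (SD, n = 10) in endothelial cells and 5.07 ± 2.84 RPKM (n = 10) in myeloma cells, against 0.203 ± 0.599 RPKM (n = 10) in stromal progenitors and 0.914 ± 1.76 RPKM (n = 8) in osteoprogenitors. The endothelial libraries fell into extremes, from no read in 3 of 10 to 50.5 RPKM (1527 reads) in myeloma-bearing D. Myeloma cells had reads in all 10 libraries, and healthy stromal progenitors had none in all 5. At 3 reads per library that group would be at 0.0913 RPKM, so the mean of healthy endothelial cells (11.1 RPKM) was at least 122-fold higher, a bound that covers counting error only. It rested in part on 1 library and was 46.0-fold without healthy M. Endothelial cells exceeded stromal progenitors by 2.30 ± 0.63 (SE, log2; adjusted p = 0.00620) and osteoprogenitors by 1.92 ± 0.67 (adjusted p = 0.0328), and myeloma cells exceeded stromal progenitors by 2.24 ± 0.63 (adjusted p = 0.00448) and osteoprogenitors by 1.87 ± 0.67 (adjusted p = 0.0273, limma). The difference between endothelial and myeloma cells was 0.06 ± 0.63 (adjusted p = 0.984). Between the myeloma niches Dusp2 was at 4.77 ± 3.895 RPKM in the bone lining and 5.37 ± 1.64 RPKM in the central marrow (n = 5 each), a log2 difference of -0.43 ± 0.53 (adjusted p = 0.981). Its call against osteoprogenitors was lost without letter D, I or M for endothelial cells and without letter I for myeloma cells. Taking healthy niche cells alone also ended both calls (adjusted p = 0.263 and 0.112), myeloma-bearing niche cells alone that of endothelial cells (0.138) and bone lining myeloma cells alone that of myeloma cells (0.132).

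Dusp5, the nuclear phosphatase of ERK with 2 CArG boxes in its promoter, was low and irregular. Osteoprogenitors had the highest mean, 2.76 ± 3.23 RPKM (SD, n = 8), with 4 of 8 libraries above 1 RPKM and at most 148 reads. Endothelial cells followed with 1.26 ± 3.98 RPKM (n = 10), which rested on 1 library, myeloma-bearing E at 12.6 RPKM (262 reads). That library had the highest Prrx1 of the endothelial libraries (33.4 RPKM), with Pdgfra at 0.0412 RPKM and Col1a1 at 14.4 RPKM. Whether RNA of other cells had a part in its Dusp5 value was not tested. Stromal progenitors had at most 5 reads in any library. The central marrow had no read in all 5 myeloma libraries, whereas the bone lining libraries had 0, 1 and 0 reads in D, E and I, 79 in G (3.02 RPKM) and 24 in J (1.56 RPKM). On average 3 reads in a central library would be 0.119 RPKM, so the bone lining mean of 0.927 RPKM was at least 7.79-fold higher, a value that came from 2 of 5 libraries and was 3.40-fold without library G. Osteoprogenitors exceeded endothelial cells by 1.01 ± 0.44 (SE, log2; adjusted p = 0.0916), stromal progenitors by 1.35 ± 0.44 (adjusted p = 0.0546) and myeloma cells by 1.05 ± 0.44 (adjusted p = 0.0577, limma). Dusp5 exceeded 1 RPKM in 4 osteoprogenitor, 2 myeloma, 1 endothelial and 0 stromal libraries. It thus passed the filter of at least 4 libraries only through the osteoprogenitors, and these differences are a description. These calls lay near the threshold: without letter I the differences were 0.65, 1.08 and 0.69 (log2), and none was called. Leaving out letter J, N or O also ended all 3 calls, leaving out C or G that against endothelial cells, and leaving out E that against myeloma cells. Healthy niche cells alone called none of the 3, myeloma-bearing niche cells alone only that against myeloma cells, and the use of bone lining myeloma cells alone ended the last.

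Dusp6, the cytoplasmic phosphatase that limits ERK, was present in all 38 libraries and highest in endothelial cells. It was at 80.5 ± 28.6 RPKM (SD, n = 10) in endothelial cells, 39.65 ± 29.7 RPKM (n = 10) in stromal progenitors, 29.7 ± 16.6 RPKM (n = 10) in myeloma cells and 22.9 ± 15.4 RPKM (n = 8) in osteoprogenitors. Endothelial cells exceeded stromal progenitors by 1.42 ± 0.49 (SE, log2; adjusted p = 0.0311), myeloma cells by 1.51 ± 0.49 (adjusted p = 0.0122) and osteoprogenitors by 2.09 ± 0.52 (adjusted p = 0.00213, limma). The order among the other 3 cell types was not resolved, with 0.09 ± 0.49 between stromal and myeloma cells (adjusted p = 0.912) and 0.58 ± 0.52 between myeloma cells and osteoprogenitors (adjusted p = 0.409). Endothelial libraries ran from 45.9 to 134 RPKM and stromal libraries from 2.41 to 94.6 RPKM, so the ranges overlapped. With bone lining myeloma cells alone the difference from endothelial cells was 0.96 (adjusted p = 0.243), and with healthy niche cells alone that from stromal progenitors was 1.10 (adjusted p = 0.333).

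In myeloma cells of the bone lining Dusp6 was at 68.4 RPKM in library D, 29.0 in E, 41.5 in G, 29.6 in I and 35.9 in J. In the central marrow it was at 21.9 RPKM in D, 8.91 in E, 14.7 in G, 22.8 in I and 24.4 in J. The lowest bone lining library lay above the highest central library. The share of all genes that separate in this way is not given here, so nothing is read from it about Dusp6. The means of 40.9 ± 16.2 and 18.5 ± 6.53 RPKM (SD, n = 5 each) gave a log2 difference of 1.11 ± 0.34 (SE), with an adjusted p of 0.490 in limma, and no alternative called it (adjusted p 0.486 to 1). This difference ranked 82 of 8857 genes by p. It remained positive under all 15 alternatives, from 0.45 to 1.54.

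Dusp10, a phosphatase of JNK and p38, was carried by osteoprogenitors and a part of the stromal libraries, and had no read in any of the 10 myeloma libraries. Osteoprogenitors were at 3.30 ± 3.76 RPKM (SD, n = 8), stromal progenitors at 2.17 ± 3.15 RPKM (n = 10) and endothelial cells at 0.350 ± 1.08 RPKM (n = 10). The stromal median was 0.0716 RPKM, with 4 of 10 libraries above 1 RPKM, of which 1, library C, was from healthy mice. An average of 3 reads in the myeloma libraries would be 0.0552 RPKM, which puts the osteoprogenitor mean at least 59.8-fold and the stromal mean at least 39.2-fold higher. Each rested in part on 1 library: without healthy L the osteoprogenitor bound was 39.8-fold, and without myeloma-bearing I the stromal bound was 24.9-fold. Libraries within a niche group were uneven, and healthy osteoprogenitors had 381 reads in L, 152 in M, 133 in N and 1 in O. Osteoprogenitors exceeded endothelial cells by 1.34 ± 0.45 (SE, log2; adjusted p = 0.0263) and myeloma cells by 1.57 ± 0.45 (adjusted p = 0.00569), and stromal progenitors exceeded myeloma cells by 1.06 ± 0.43 (adjusted p = 0.0449, limma). The stromal call was lost without letter C, D, I or J and the endothelial call without L, and with healthy niche cells alone the difference between stromal and myeloma cells was 0.48 (adjusted p = 0.541). Either myeloma niche alone also ended the stromal call (adjusted p = 0.125 for central marrow and 0.127 for bone lining). With myeloma-bearing niche cells alone the osteoprogenitor calls were lost, against endothelial cells (adjusted p = 0.301) and against myeloma cells (adjusted p = 0.143). Stromal progenitors and endothelial cells differed by 0.84 ± 0.43 (adjusted p = 0.172), a difference called in voom-limma (adjusted p = 0.0698) and with myeloma-bearing niche cells alone (adjusted p = 0.0681). Osteoprogenitors and stromal progenitors differed by 0.50 ± 0.45 (adjusted p = 0.675).

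Dusp16, which like Dusp10 prefers JNK and p38, had a different distribution. All 10 myeloma libraries had 277 to 1586 reads of it, at 6.27 ± 3.52 RPKM (SD). Endothelial cells were at 1.28 ± 2.10 RPKM (n = 10), with no read in 4 libraries, and osteoprogenitors at 1.70 ± 3.13 RPKM (n = 8), with no read in 4 libraries. Stromal progenitors had a mean of 6.33 ± 14.7 RPKM (n = 10), set by myeloma-bearing library I at 47.5 RPKM (6048 reads), while their median was 1.27 RPKM. Myeloma cells exceeded endothelial cells by 1.98 ± 0.55 (SE, log2; adjusted p = 0.00376) and osteoprogenitors by 1.93 ± 0.58 (adjusted p = 0.00838) under all 19 alternatives. Their excess over stromal progenitors was 1.19 ± 0.55 (adjusted p = 0.0840, limma), and 0.27 (adjusted p = 0.817) against stromal progenitors of myeloma-bearing mice alone. That call was lost without each of letters C, D, E, G, L, M and N, and with central marrow myeloma cells alone (adjusted p = 0.357). Between the myeloma niches the bone lining had 12.7 RPKM in D, 8.77 in E, 3.28 in G, 9.78 in I and 4.81 in J, and the central marrow 2.73 RPKM in D, 3.08 in E, 2.62 in G, 8.51 in I and 6.50 in J. The 2 ranges overlapped, and the log2 difference of 0.64 ± 0.46 was not called (adjusted p = 0.942).

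Dusp14, the atypical phosphatase, was picked for its level in bone lining myeloma cells, where the libraries had 44.7 RPKM in D, 115 in E, 88.0 in G, 91.7 in I and 165 in J. The central marrow libraries had 8.77 RPKM in D, 15.7 in E, 24.8 in G, 27.7 in I and 16.4 in J. All bone lining libraries lay above all central libraries, in the comparison that Dusp14 was picked from. The means were 101 ± 43.8 and 18.7 ± 7.62 RPKM (SD, n = 5 each), a log2 difference of 2.35 that ran from 2.12 to 2.51 over 15 alternatives. It was 2.27 among letters D, E and G and 2.47 among letters I and J. All of these values come from the libraries that Dusp14 was picked on, so how little they moved is no support for the rise.

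In the niche cells, Dusp14 was highest in stromal progenitors. In healthy mice these had 171 RPKM in C, 86.2 in L, 273 in M, 136 in N and 232 in O, and in myeloma-bearing mice 80.6 RPKM in D, 164 in E, 62.8 in G, 77.1 in I and 123 in J. Osteoprogenitors ranged from 10.6 to 114 RPKM, with a mean of 54.9 ± 36.1 RPKM (SD, n = 8). Bone lining myeloma cells thus lay between 44.7 and 165 RPKM, within the stromal and osteoprogenitor range. In endothelial cells 9 of 10 libraries were at 0.0770 to 0.314 RPKM, with 2 to 11 reads, and the remaining library, healthy N, was at 64.6 RPKM with 1982 reads. In that library Prrx1 was at 0.0316 RPKM, Pdgfra at 0.0559 RPKM and Ptprc, the CD45 gene, had no value above 0, and its endothelial markers summed to 13997 RPKM. Its neutrophil markers summed to 58.8 RPKM, all of it Lcn2, which was at most 0.144 RPKM in the other endothelial libraries and had a median of 45.4 RPKM in stromal progenitors and 8.39 RPKM in osteoprogenitors. Its stromal progenitor markers (3935 RPKM), osteoprogenitor markers (36.2 RPKM) and macrophage and osteoclast markers (129 RPKM) lay within the range of the other endothelial libraries. Whether RNA of other cells had a part in the Dusp14 value was not tested.

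Stromal progenitors exceeded endothelial cells in Dusp14 by 6.14 ± 0.53 (SE, log2; adjusted p = 5.15e-12), and osteoprogenitors exceeded them by 4.59 ± 0.56 (adjusted p = 2.80e-08, limma). Without letter N these differences were 6.75 and 5.02. Central marrow myeloma cells, whose level the choice of Dusp14 also used, exceeded endothelial cells by 3.35 and fell 2.79 short of stromal progenitors, and these values are given without a test. Bone lining myeloma cells differed from stromal progenitors by 0.44 (log2). Stromal progenitors and osteoprogenitors differed by 1.55 ± 0.56, which was not called (adjusted p = 0.101), and 4 of 17 alternatives called it: without letter N (1.74; adjusted p = 0.00956), without letter M (1.68; 0.0993), voom-limma (1.61; 0.0402) and a replicate block (1.56; 0.0941). It was 2.30 in healthy mice (adjusted p = 0.137) and 0.81 in myeloma-bearing mice (adjusted p = 0.775).

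In niche cells, myeloma-bearing and healthy mice were compared to ask whether the tumour alters these genes in its surroundings, and no member was called. In endothelial cells 3 members could be tested and 0 were called (0% of 7880 genes), in stromal progenitors 5 and 0 (0% of 8747), and in osteoprogenitors 5 and 0 (0.0115% of 8664). None of these had an unadjusted p below 0.05, and voom-limma called none. The shares over all genes depended on the fit. A limma fit of all 38 libraries called 258, 31 and 16 genes in these cell types, and no member. Dusp1 averaged 747 ± 225 RPKM in endothelial cells of myeloma-bearing mice and 973 ± 390 RPKM in healthy mice (SD, n = 5 each), a log2 difference of -0.31 ± 0.39 (SE; adjusted p = 0.983). In stromal progenitors the difference was -0.30 ± 0.30 (adjusted p = 0.987) and in osteoprogenitors -0.39 ± 0.29 (adjusted p = 0.981, limma).

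Among the other members, Dusp14 in stromal progenitors averaged 102 ± 41.6 RPKM in myeloma-bearing and 179 ± 74.2 RPKM in healthy mice (SD, n = 5 each), with overlapping ranges and a log2 difference of -0.79 ± 0.44 (SE; adjusted p = 0.956). Without the 2 libraries high in neutrophil markers, an alternative chosen after seeing the data, it was -1.22 ± 0.46 (adjusted p = 0.919). Dusp16 in stromal progenitors was at 12.0 ± 20.1 RPKM in myeloma-bearing and 0.635 ± 0.762 RPKM in healthy mice, a log2 difference of 1.84 ± 0.94 (adjusted p = 0.956, limma). Library I, at 47.5 RPKM, carried much of this, and without letter I the difference was 1.05 (adjusted p = 0.978). Dusp10 in stromal progenitors was 3.53 ± 3.81 against 0.799 ± 1.76 RPKM (1.18 ± 0.79 on the log2 scale; adjusted p = 0.971). In osteoprogenitors Dusp10 was 1.98 ± 2.62 in myeloma-bearing against 4.62 ± 4.63 RPKM in healthy mice (n = 4 each; -0.90 ± 0.95; adjusted p = 0.998). Over the members tested in the comparisons of 2 groups, standard errors ran from 0.29 to 1.42 on the log2 scale. Dusp14 in osteoprogenitors differed by 0.69 ± 0.73 (adjusted p = 0.998). The differences of Dusp6 were 0.09 ± 0.62 in endothelial cells (adjusted p = 0.994), -0.55 ± 0.83 in stromal progenitors (0.994) and -0.25 ± 0.90 in osteoprogenitors (0.998). Dusp2 differed by 0.35 ± 1.42 in endothelial cells (adjusted p = 0.992) and Dusp5 by 0.37 ± 0.92 in osteoprogenitors (adjusted p = 0.998, limma). The remaining members of each cell type did not pass the filter of 1 RPKM in at least 4 libraries.

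Whether the change with myeloma differed between niche cell types was tested as an interaction in limma over 11713 genes. No member was called between endothelial cells and stromal progenitors (0% of all genes), endothelial cells and osteoprogenitors (0%), or stromal progenitors and osteoprogenitors (0.00854%). None had an unadjusted p below 0.05, and voom-limma called none. The largest value was that of Dusp10, whose change was 2.08 ± 1.08 (SE, log2) higher in stromal progenitors than in osteoprogenitors (unadjusted p = 0.0648, adjusted p = 1). Over the 3 interactions the values of Dusp10 ran from -1.59 to 2.08, of Dusp16 from -1.52 to 1.86, of Dusp14 from -1.86 to -0.37, of Dusp5 from -0.30 to 0.67, of Dusp6 from -0.30 to 0.64, of Dusp2 from 0.01 to 0.49 and of Dusp1 from -0.01 to 0.09.

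**Figure D4:**
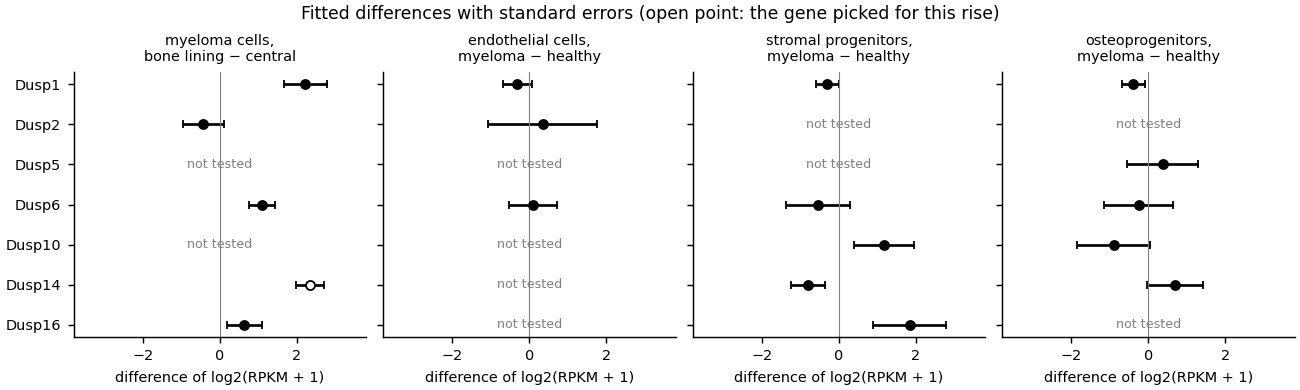
Differences of log2(RPKM + 1) with standard errors for each phosphatase in the 4 comparisons of groups, where an open point marks Dusp14 in the comparison it was picked from. In stromal progenitors the standard error is 0.30 for Dusp1, 0.79 for Dusp10 and 0.94 for Dusp16, and between the myeloma niches it is 0.46 for Dusp16.

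The other genes of the MAP kinase pathways were taken from lists chosen with earlier results of these data known, so calls of list genes are a description. Between bone lining and central marrow myeloma cells, where 0.203% of all genes were called, 3 of 9 tested immediate-early genes were called and were higher in the bone lining, Fos by 4.05 ± 0.67 (SE, log2; adjusted p = 0.0182), the AP-1 subunit Fosb by 3.26 ± 0.52 (adjusted p = 0.0180) and the zinc finger factor Klf6 by 2.55 ± 0.43 (adjusted p = 0.0182). The median over the 9 was 1.31, against -0.01 over all genes. Among 5 tested ERK output genes Myc, a growth-promoting transcription factor, was called and fell by 1.93 on the log2 scale (SE 0.32; adjusted p = 0.0182, limma). These calls depended on the settings. Over all genes 18 were called here, but 1 with no filter and 3 without letter D, so most of the calls named did not hold with no filter. None was called of 9 other dual specificity phosphatases, 16 genes of the ERK cascade, 19 of the JNK and p38 cascade, 8 Ras and ERK feedback inhibitors, or 7 tyrosine and serine phosphatases of MAP kinases, and their medians lay between -0.10 and 0.17. At so low a share over all genes, a list without a call is not set apart. In the niche cells no gene of any list was called between myeloma-bearing and healthy mice, where 0%, 0% and 0.0115% of all genes were called in endothelial cells, stromal progenitors and osteoprogenitors, so that nothing is read from it about the lists.

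Between cell types, 14 of 15 immediate-early genes were called higher in endothelial cells, in stromal progenitors and in osteoprogenitors than in myeloma cells, with medians of 5.11, 5.11 and 5.49 (log2), against -0.24, -0.12 and -0.09 over all genes. Of all genes, 16.9%, 19.3% and 20.1% were called higher and 26.3%, 22.5% and 19.9% lower in these comparisons. All niche libraries came from collagenase-digested bone, and the part of this preparation in the immediate-early genes was not tested. Of 12 ERK output genes, 7, 5 and 9 were called higher and 3, 2 and 0 lower, with medians of 1.63, 0.98 and 2.46. The 13 other dual specificity phosphatases tested had medians of 0.27, -0.14 and -0.08, with 4 called higher and 3 lower in endothelial than in myeloma cells, 1 higher and 2 lower in stromal progenitors, and 1 higher and 2 lower in osteoprogenitors. Of 24 ERK cascade genes, 6, 9 and 7 were called higher and 1 lower in each of the 3 comparisons with myeloma cells. Of 24 JNK and p38 cascade genes, 3, 3 and 4 were called higher and 3, 4 and 5 lower. Of 8 tyrosine and serine phosphatases of MAP kinases, 1, 0 and 0 were called higher and 2 lower in each. Of 12 Ras and ERK feedback inhibitors, which include Sprouty proteins, 4 were higher and 3 lower in endothelial cells, 3 higher and 2 lower in stromal progenitors, and 2 higher and 1 lower in osteoprogenitors.

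The genes most like each member were found by Pearson's r of log2(RPKM + 1) over the 38 libraries, among 12676 genes. These libraries share cell types, so a high r describes a shared distribution over them. Dusp1 was followed by Fos (r = 0.968), Gadd45g (0.951) and Ier3 (0.949), 3 genes of rapid response to growth factors and stress. Dusp14 was followed by Rabgap1l (0.837), Gpsm2 (0.825) and Mpp6 (0.795), and Dusp16 by Aldh3b1 (0.817), Pim2 (0.711) and Klhdc1 (0.711). Dusp6 was nearest to Vamp5 (0.774), Marc2 (0.652) and Kcnj8 (0.643). For Dusp2 these were Zc3h18 (0.776), Myh10 (0.733) and Tle4 (0.701), for Dusp5 Mfap1a (0.712), Arxes1 (0.700) and Farp2 (0.694), and for Dusp10 9930013L23Rik (0.773), Sdk2 (0.699) and Cacna1c (0.699). Among the members themselves, over 21 pairs, r over the 38 libraries ran from -0.51 (Dusp2 and Dusp14) to 0.36 (Dusp1 and Dusp10). After removing group means it ran from -0.29 (Dusp2 and Dusp14) to 0.26 (Dusp1 and Dusp14).

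**Figure D5:**
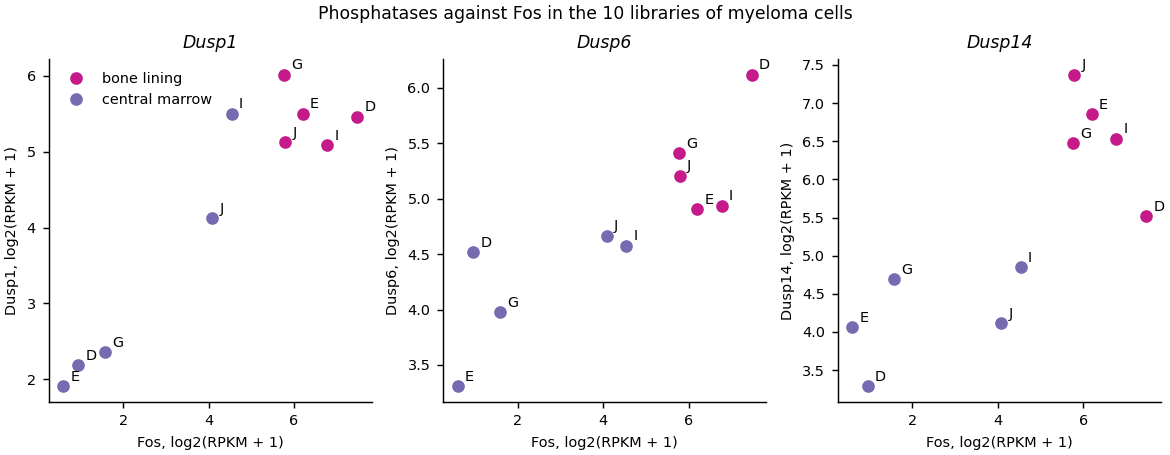
Dusp1, Dusp6 and Dusp14 against Fos, all as log2(RPKM + 1), in the 10 libraries of myeloma cells, with the library letter at each point. Dusp1 follows Fos through central libraries I and J, whereas Dusp14 is at 27.7 and 16.4 RPKM in them, below all bone lining libraries.

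Within the 10 myeloma libraries, after removing the niche means, r with Fos was 0.852 for Dusp1, 0.848 for Dusp16, 0.627 for Dusp6, 0.107 for Dusp14 and -0.02 for Dusp2, as a description over 10 libraries that share 2 niches. With Fosb the same r was 0.551 for Dusp1, 0.886 for Dusp16, 0.386 for Dusp6, -0.21 for Dusp14 and 0.429 for Dusp2. In central libraries I and J, where Fos was at 22.3 and 16.0 RPKM, Dusp1, Dusp6 and Dusp16 were above all other central libraries. For Dusp6 the margin was small, with 22.8 and 24.4 RPKM against 21.9 RPKM in central D. Dusp14 was at 27.7 and 16.4 RPKM in these libraries and at 8.77 to 24.8 RPKM in the other 3.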

How the data were processed

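RNA of sorted cells was amplified by SmartSeq2. The authors mapped reads to GRCm38 (mm10) with STAR (2.4.0 in the submitters' processing notes), counted reads per gene with featureCounts of Subread 1.4.5-p1 at its defaults, and deposited RPKM values calculated with edgeR, 1 column for each of 38 libraries. 0 columns matched no sample. Length is divided out of RPKM, so levels can be compared between genes. Removal of PCR duplicates is not stated for these single-end libraries, and no molecular identifiers were used, so read counts may include PCR copies and floors and bounds cover counting error only. The whole reads behind the RPKM values were recovered from the steps between values, and 100% of 13260 genes came out whole within 0.001 of a read. The floor of a group without reads was 3 reads per library.

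Groups were compared with limma 3.58.1 in R 4.3.3 (lmFit, then eBayes with trend) on RPKM after adding 1 and taking log2, a scale that understates the change of low genes. A gene was tested if more than 1 RPKM was reached in 4 or more libraries of the comparison. Calls needed an adjusted p (Benjamini-Hochberg) under 0.1 together with a log2 difference over 1 in either direction. The study's voom-limma was run on the recovered reads as an alternative. The other alternatives changed the pseudocount, filter, scaling, libraries in the fit or replicate block, or left out each letter. The p-values measure the spread between libraries. Scripts were tested on simulated data. Tables and figures were made in Python 3.11.15 with matplotlib 3.10.9.

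The members and gene lists were chosen with earlier results of these data known. The 7 members with values are followed through every comparison in which they could be tested, list genes where called between groups (at most 4 per list), and for each member the 3 genes most like it. In GENCODE M21 on GRCm38, Dusp1 overlaps Ergic1, and Dusp5, Dusp10 and Dusp16 each overlap a gene on the opposite strand that is not in the table. The defaults of featureCounts do not use strand, so reads of such pairs cannot be told apart where they overlap.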

Additional observations from a re-analysis of the deposited data

Results flagged for a closer look

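Of 51 sets of libraries (a member in a group of 4 or 5, with any spread), 13 had 1 library set apart from the rest by Dixon's test on log2(RPKM + 1), at the 95% level. Chance gives about 5% where values spread normally, and that rate cannot be applied to these counts: in 5 of the 13 all other libraries had no read, so that any value would stand apart. Dusp14 in healthy endothelial library N, described above, was at 64.6 RPKM against 0.148 to 0.314 RPKM in the other 4. Dusp6 in healthy osteoprogenitor library L was at 1.65 RPKM against 27.5 to 45.1 RPKM in the other 3, and was the only low outlier among the 13.

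The other 11 concern members in groups where most libraries had few or no reads. Dusp2 was at 1.91 RPKM (80 reads) in myeloma-bearing stromal library E, which was also high in neutrophil markers, at 4.54 RPKM (135 reads) in healthy osteoprogenitor library O and at 2.77 RPKM (55 reads) in myeloma-bearing osteoprogenitor library J, and at most 0.0744 RPKM in the other libraries of these groups. Dusp5 was at 12.6 RPKM (262 reads) in myeloma-bearing endothelial library E, at 0.0407 RPKM (1 read) in healthy endothelial library N and at 0.244 RPKM (5 reads) in myeloma-bearing stromal library J. Dusp10 was at 3.43 RPKM (161 reads) in healthy endothelial library C and at 3.95 RPKM (211 reads) in healthy stromal library C. Dusp16 was at 5.32 RPKM (660 reads) in healthy endothelial library O, at 7.90 RPKM (515 reads) in healthy osteoprogenitor library L and at 5.41 RPKM (339 reads) in myeloma-bearing osteoprogenitor library J. Healthy endothelial library O had Prrx1 at 22.9 RPKM, Pdgfra at 0.0856 RPKM and Col1a1 at 3.95 RPKM.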

How the results depend on the processing

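Over 81 values of members and 1353 repeats of them under the alternatives, no called difference changed its direction, 50 repeats fell below the thresholds and 9 passed them where the reported value had not. The sign changed in 95 repeats, all of differences that were reported as not called, of at most 0.74 on the log2 scale. Between bone lining and central marrow, 0 of 4 members other than Dusp14 were called, and 1, Dusp1, in the fit of all 38 libraries and among letters D, E and G, the latter chosen after seeing the data; leaving out a letter gave 0 to 1, the 1 without letter I. The comparisons of healthy and myeloma-bearing mice and of their change called 0 members under every alternative run. The 6 pairs of cell types gave 21 calls of members in all, Dusp14 against myeloma cells left out, and 14 (healthy niche cells alone) to 23 (voom-limma) under the alternatives, with 15 to 20 when a letter was left out.

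Letters shared by the myeloma niches did not pair their libraries: the correlation of deviations from the group means for the 5 shared letters ran from -0.0488 to 0.067, and 1 of 5 bone lining libraries correlated best with its own letter. With a replicate block 12 genes were called between the niches in place of 18, and 0 of the 4 members; between cell types the block added Dusp14 between stromal progenitors and osteoprogenitors (1.56; adjusted p = 0.0941, limma) and changed no other call.

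Counts over all genes moved more. Between the niches 18 genes became 1 with no filter, 8 with voom-limma on the libraries compared, 10 among letters D, E and G, 0 among I and J, and 3 to 16 without a letter (3 without D). For healthy against myeloma-bearing mice, voom-limma on all 38 libraries called 251, 82 and 28 genes in endothelial cells, stromal progenitors and osteoprogenitors, the limma fit of all 38 libraries 258, 31 and 16, and the fits reported 0, 0 and 1; voom-limma on the libraries compared called 4 in endothelial cells and no filter 2. Between cell types, niche cells of myeloma-bearing mice alone gave 2292 in place of 3535 between endothelial cells and osteoprogenitors, and 600 (healthy mice alone 501) in place of 1075 between stromal progenitors and osteoprogenitors. The 3 interactions, with 0, 0 and 1 genes, gave 0 to 5 under the alternatives. The cause of these shifts was not tested. Dusp5 and Dusp10 rested on at most 262 and 629 reads in a library, against up to 63190 for Dusp1.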
